A study of Mus musculus with 4 samples.

Results

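The 6 genes described here encode the E proteins Tcf3, Tcf4 and Tcf12 and the inhibitors Id1, Id2 and Id3. They were taken by gene name, and the rule used no signal, though it was set with earlier results of these data known. They are 6 of the 18749 genes that could be named on the arrays. The arrays carried 11 probes for them, of which 10 were well above background on all 4 arrays, and each of the 6 genes had at least 1 such probe.

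Transcripts were measured in helper T (Th) cells on 4 one-colour microarrays, 1 per condition, to compare Bach2 WT with Bach2 KO cells before and after re-stimulation through the T cell receptor. Both genotypes were on the C57BL/6J background. The KO carried Bach2flox/flox alleles and a CD4-Cre transgene, in which the Cd4 promoter drives the recombinase, so that the deletion starts when a developing T cell first uses this promoter. For the in vivo work the study used CD4-Cre mice as WT controls, and the labels of the WT arrays name no transgene. The study's methods describe adult mice and, for its in vitro experiments, both sexes, and how many mice went into a sample is not given in the sources used here.

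Naive CD4 T cells, isolated from the spleen by their surface markers, were cultured for 5 days. For the first 2 days they were stimulated through the TCR (antibody at 3 μg/ml, immobilized) and through CD28 (antibody at 1 μg/ml), and for 3 more days they grew in IL-2, labelled 2.5 ng/ml. The WT and KO cells before re-stimulation were taken at this point. The re-stimulated WT and KO cells had a further 4 h with the immobilized antibody and no added IL-2. With 1 array per condition no difference has a replicate check and no test between conditions was made.

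E proteins are helix-loop-helix transcription factors that bind E-box sequences as dimers, through a basic region next to the dimerization domain. Id proteins have the dimerization domain but no basic region. They form dimers with E proteins that cannot bind DNA, and so act as inhibitors of E proteins. In the thymus, E proteins drive T lineage genes, and signals through the pre-TCR and the TCR raise Id3 and lower E protein activity. In mature T cells Id2 is known from effector cells and Id3 from naive, follicular helper and memory cells, and Id1 and Id3 are textbook targets of BMP signals. The gene Tcf4 of this family should not be confused with Tcf7 or Tcf7l2, which encode HMG box factors of the Wnt pathway.

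As E proteins and their inhibitors work through the E-box, promoter sequences are shown for Id2, the member that differed most between the genotypes, and for Id3 and Tcf3, an inhibitor and an E protein whose values on re-stimulation were close to each other. Promoters were read from a RefSeq table of the assembly GRCm38.p6 for 4 of the 6 members, namely Id2, Id3, Tcf3 and Tcf12. A filter by chromosome came before this count, and the promoters of Id1 and Tcf4 were not examined. The stretches below are the 250 bases before the annotated start of transcription, written 5′ to 3′ on the strand of the gene, and capitals mark each E-box (CANNTG, which reads the same on both strands). The Id2 stretch lies at chr12:25096093-25096342 on the minus strand, that of Id3 at chr4:136143572-136143821 on the plus strand and that of Tcf3 at chr10:80433636-80433885 on the minus strand.
Id2: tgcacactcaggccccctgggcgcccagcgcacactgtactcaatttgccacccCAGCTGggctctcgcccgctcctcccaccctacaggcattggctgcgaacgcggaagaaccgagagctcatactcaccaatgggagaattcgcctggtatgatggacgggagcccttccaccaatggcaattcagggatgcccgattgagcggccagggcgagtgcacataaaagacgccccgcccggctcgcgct
Id3: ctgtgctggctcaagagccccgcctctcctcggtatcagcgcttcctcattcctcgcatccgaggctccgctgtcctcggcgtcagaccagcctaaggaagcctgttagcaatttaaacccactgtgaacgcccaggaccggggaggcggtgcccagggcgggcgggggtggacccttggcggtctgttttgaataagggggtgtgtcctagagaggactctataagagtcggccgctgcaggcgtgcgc
Tcf3: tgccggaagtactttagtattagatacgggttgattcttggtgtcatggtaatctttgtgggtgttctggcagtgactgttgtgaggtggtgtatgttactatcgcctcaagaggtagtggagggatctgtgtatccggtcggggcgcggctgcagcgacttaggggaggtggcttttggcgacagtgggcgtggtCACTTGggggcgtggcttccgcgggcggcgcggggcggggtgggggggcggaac

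The Id2 stretch held 1 E-box, CAGCTG, whose first base lay 196 bases before the start. The Tcf3 stretch held 1 E-box, CACTTG, with its first base 54 bases before the start, and the Id3 stretch held none. Of the 32851 RefSeq promoters of this length, 66.2% held a CANNTG and 27.7% held either CAGCTG or, on one of the strands, the form CAGGTG, so an E-box in such a stretch is common. Tcf12 had 3 annotated starts, with a CAGCTG at 240 bases, a CAAGTG at 149 bases and no E-box before them. The AP-1 element TGAGTCA, searched on both strands, was in none of the 6 stretches of these 4 genes and in 4.46% of all promoters. These are matches of letters, and no binding was measured on the arrays.

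Signals are the background-subtracted intensities of the scanner software, and a difference is the log2 of the ratio between 2 arrays after each was divided by its 75th percentile. The modelled error that follows a difference is the spot error given by that software, carried through the subtraction. It covers the array only and leaves out the spread between mice, cultures and hybridizations. Where a gene had several probes, the brighter one is given first. Probes differ in how well they hybridize, so the signal of one member was not set against that of another.

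The arrays had 22053 to 22223 probes well above background, and their 75th percentiles were signals of 434 and 436 on the unstimulated and 313 and 353 on the re-stimulated arrays. All 10 markers of T cells were well above background on every array. Cd8a, the mark of CD8 T cells, was so only on the re-stimulated KO array, with a signal of 63.0. Of 6 B cell markers 2 or 3 were well above background on an array, with Pax5 and Ms4a1 on none, and of 5 myeloid markers 1 to 3 were, with Lyz2 and Itgam on none. The summed signals were 159 to 603 for the B cell list. For the myeloid list they were 224 and 460 on the WT and KO arrays before and 81.5 and 198 after re-stimulation. Most of each myeloid sum was Adgre1, well above background on every array, with 185 and 410 before and 48.2 and 160 after it. The part of such cells in the differences between the genotypes was not tested. Bach2, the gene deleted in the KO, was read by a single probe (transcript NM_001109661), whose KO signals were little below WT, at 2633 against 2932 before and 3080 against 3310 after re-stimulation, differences of -0.15 and -0.28. Whether it lies in the deleted part is not given in the sources used here, and the genotypes are called as the labels have them.

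The arrays labelled KO differed from the WT arrays in more than the label. All mice were labelled female, while the study's methods name both sexes for its in vitro experiments. The Y-linked transcript Eif2s3y had signals of 1185 and 951 on the KO arrays before and after re-stimulation and was not above background on the WT arrays. Ddx3y, also Y-linked, behaved alike with 428 and 434. Xist, the transcript of the inactive X chromosome, had signals of 9524 and 5221 on the WT arrays and 4623 and 2585 on the KO arrays, in the same order. The KO arrays thus held Y-linked transcripts and Xist together, as a sample with cells of both sexes would. Sex and genotype therefore cannot be told apart on these arrays. In bulk samples, fewer cells of a type and less RNA per cell cannot be told apart either.

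Of the 6 members, 1 was at least 2-fold higher and 0 were at least 2-fold lower on the KO array before re-stimulation. Of all 12136 genes measured in this comparison, 5.26% were at least 2-fold higher and 2.82% at least 2-fold lower. The member was the inhibitor Id2. The 3 E protein genes and Id1 differed by less than the modelled error. The median difference of the members was -0.04, next to -0.003 for all genes.

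**Figure D1:**
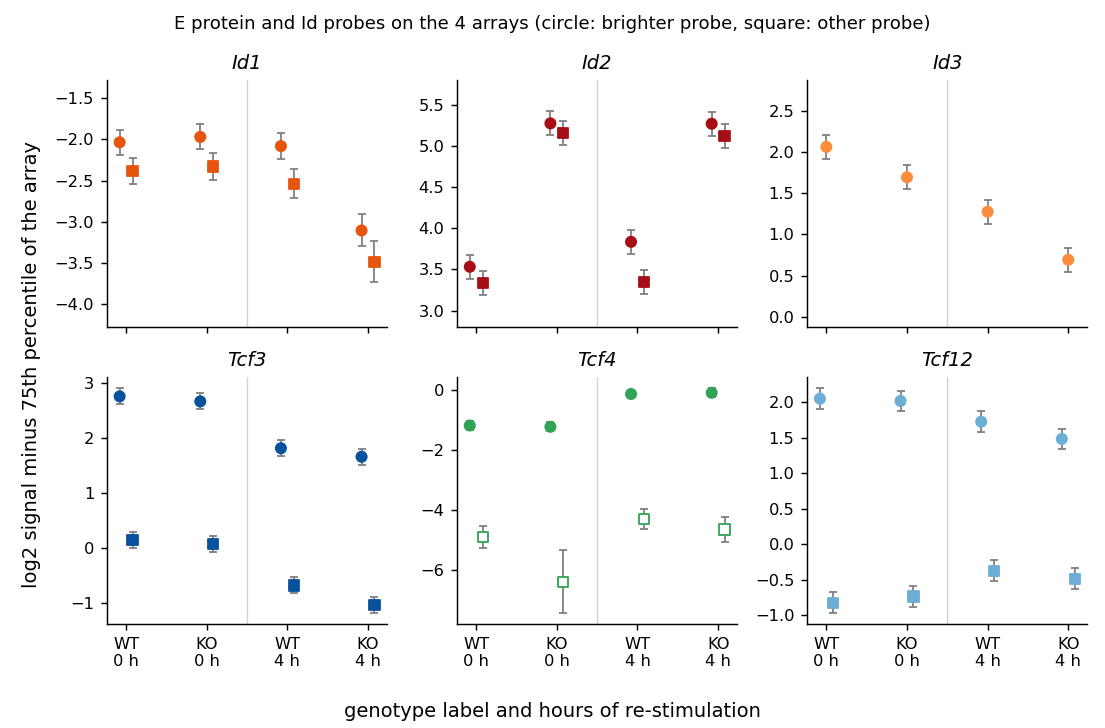
Each panel plots, for 1 gene, the log2 signal minus the 75th percentile of the array on the 4 arrays (WT and KO at 0 h and 4 h of re-stimulation), with circles for the brighter probe, squares for the other, bars for the modelled spot error and open symbols for probes not well above background. Both Id2 probes lie higher on the KO arrays at either time, both Id1 probes are lowest on the re-stimulated KO array, and the vertical scales differ between panels.

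Id2 (transcript NM_010496), the inhibitor best known from effector T cells, NK cells and innate lymphoid cells, gave 5047 in WT and 16787 in KO cells before re-stimulation (signals). In the re-stimulated cells its signals were 4461 and 13594. The KO arrays were thus the brighter ones at both times. The difference was 1.74 before re-stimulation with a modelled error of 0.20, a fold of 3.34. It was 1.43 after re-stimulation, with the same error, a fold of 2.70.

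The other Id2 probe had signals of 4393 and 15448 before and of 3183 and 12263 after re-stimulation. Its differences were 1.82 and 1.77, so both probes gave the same direction at both times. Of the genes measured, 2.08% were as far above WT as Id2 before re-stimulation, and 2.76% after it. In the order of its levels, the unstimulated WT array stood lowest and the re-stimulated WT array 0.30 above it, with 0.02 between them for the other probe. The 2 KO arrays stood highest and differed by less than the error.

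Under 9 alternative ways of processing the arrays, the Id2 difference ran from 1.68 to 1.88 before re-stimulation and from 1.33 to 1.60 after it, and was at least 2-fold in all 9. Among the 9, the changes of filter and floor and the deposited log2 values by design left each member as reported or nearly so. The probe used for each member was well above background on every array, and the deposited values have the same scaling. The size of the Id2 difference was several times the spread between probes of one gene, which had a median SD of 0.088 before and 0.110 after re-stimulation over 3852 genes. Between the Id2 probes themselves the SD was 0.057 before and 0.239 after it. Such a spread between probes of the same arrays does not cover that between mice or cultures.

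Cell types other than CD4 T cells are rich in Id2, and some of their markers differed with it. Of 9 mast cell and basophil markers on the array, 6 were well above background on either KO array, against 2 on the unstimulated and 1 on the re-stimulated WT array. Their summed signals were 1288 and 1744 on the KO arrays and 201 and 321 on the WT arrays, before and after re-stimulation. Mcpt8, a basophil protease, had signals of 309 and 333 on the KO arrays and was not above background on the WT arrays, while Ms4a2, Mcpt4 and Tpsb2 were not above background on any array.

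For group 2 innate lymphoid cells, which depend on Id2, 3 of 6 markers were well above background before re-stimulation and 4 of 6 after it in either genotype. The summed signals were 157 and 1737 for WT and KO before re-stimulation and 2748 and 5463 after it. Most of the sum on the unstimulated KO array was Il1rl1, the IL-33 receptor chain that Th2 cells also carry, with 1438. Arg1 and Il17rb of this list were not above background on any array. Of 6 NK cell markers Klrb1c was well above background on every array, Klre1 on the WT arrays alone and Klra8 on the KO arrays alone, with summed signals of 391, 481, 202 and 226 on the WT, KO, re-stimulated WT and re-stimulated KO arrays, and the defining Ncr1 was not above background on any. The part of these cells, and of the sex of the mice, in the Id2 difference was not tested.

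Id3 (transcript NM_008321), the inhibitor that TCR signals raise in thymocytes, had 1 probe. The signals, WT first, were 1821 and 1403 in unstimulated and 756 and 570 in re-stimulated cells. The KO value was below the WT value at both times. The difference was -0.37 before and -0.58 after re-stimulation, with a modelled error of 0.20 each. Neither reached 2-fold, and 13.0% and 9.22% of the genes measured were as far below WT. Under the alternatives the differences ran from -0.43 to -0.23 and from -0.61 to -0.49, so Id2 and Id3 had opposite signs under each of them.

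Id1 (transcript NM_010495), the classical BMP target of the family, had low signals. WT and KO cells had 107 and 111 before, and 73.9 and 41.0 after re-stimulation. The other probe gave 83.6 and 86.5 before and 53.8 and 31.5 after re-stimulation. The re-stimulated KO array was the lowest with both probes, and once scaled the other 3 arrays lay within the error of each other.

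The Id1 difference between genotypes was 0.06 before re-stimulation with a modelled error of 0.21. After it the difference was -1.02 with an error of 0.25, a fold of 2.03, and the other probe gave -0.95. Of the genes measured, 3.76% were as far below WT. Id1 was the 1 member at least 2-fold lower on the KO array after re-stimulation, beside Id2 as the 1 at least 2-fold higher. Among all 12348 genes then measured, 3.85% were at least 2-fold lower and 5.17% at least 2-fold higher. The median of the members was -0.20 and that of all genes 0.02.

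The Id1 value after re-stimulation stood just past the 2-fold line, and it was at least 2-fold under 6 of the 9 alternatives. Among these 6 are the deposited log2 values and the changes of filter and floor, which could not move it. With a background model that adds an offset of 50 to each signal it was -0.44. As the lowest signals well above background were 14.5 and 17.2 on the re-stimulated arrays, Id1 lay within a few fold of the limit.

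The 3 E protein genes were nearly alike in the 2 genotypes. Tcf3 (transcript NM_011548), the E protein that guides early B and T cell development, had signals of 2937 and 2744 on the WT and KO arrays before re-stimulation and of 1095 and 1110 after it. The differences, -0.09 and -0.15 with an error of 0.20, were within the error. The other probe gave 482 and 454 before and 195 and 172 after re-stimulation, differences of -0.08 and -0.36. The second of these is larger than its error of 0.21, and the brighter probe did not show it.

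Tcf12 (transcript NM_011544), the usual partner of Tcf3 in thymocytes, had signals of 1804 and 1757 before and 1033 and 984 after re-stimulation. The differences were -0.03 and -0.24, and for the other probe 0.09 and -0.11. The value of -0.24 exceeded its error of 0.20 by little, and the other probe was within its error.

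Tcf4 (transcript NM_013685), the E protein best known from plasmacytoid dendritic cells, had signals of 190 and 184 before and 282 and 327 after re-stimulation. The differences of -0.04 and 0.04 lay well within their error of 0.21. A further Tcf4 probe was at the background on all 4 arrays and gave no value. The sign of the difference before re-stimulation turned under at least 1 of the 9 alternatives for each of the 3 E proteins, among them scaling to the Cd3e probe, which gave 0.05 for Tcf3, 0.10 for Tcf4 and 0.11 for Tcf12. None of these values reached 2-fold under any alternative.

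**Figure D2:**
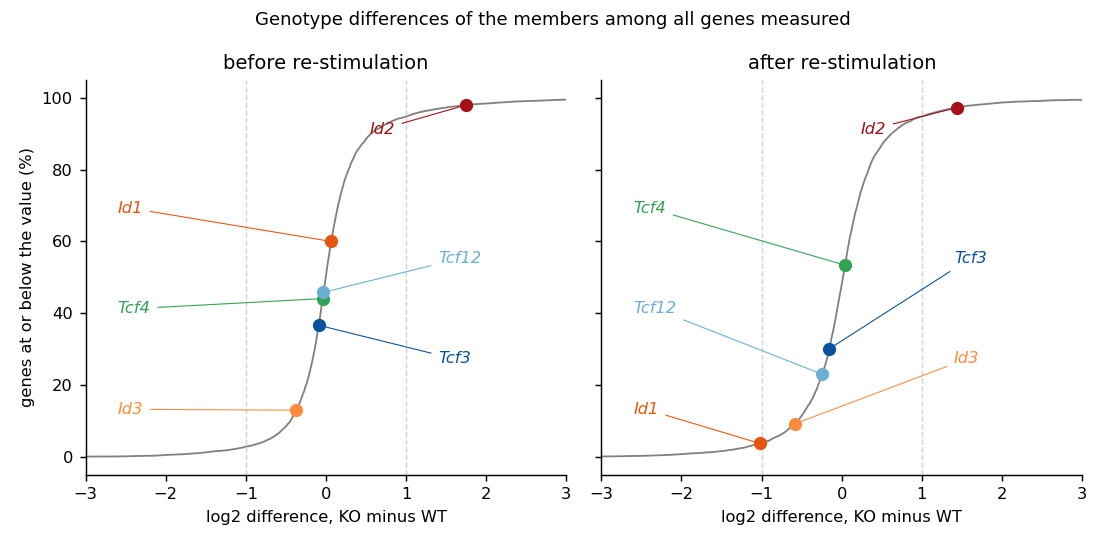
The grey curve gives the percentage of all genes measured (vertical axis) at or below a log2 difference, KO minus WT (horizontal axis, from -3 to 3), before and after re-stimulation, the coloured points mark the 6 members and the broken lines mark 2-fold. Id2 lies near the top of the curve in both panels, Id1 lies in the middle before and at the lower end after re-stimulation, and Tcf3, Tcf4 and Tcf12 lie on the steep part.

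A ratio of one member to another on the same array does not depend on the number by which that array is divided. The ratio of Id2 to Tcf3 was 3.56-fold higher on the KO array before re-stimulation and 3.01-fold higher after it. For Id2 over Tcf12 the folds were 3.42 and 3.20, and for Id2 over Tcf4 they were 3.44 and 2.63. The ratio of Id2 to Id3 was 4.32-fold higher before and 4.04-fold higher after re-stimulation, and that of Id2 to Id1 3.19-fold and 5.49-fold. On each of these measures, then, the KO arrays held more Id2 transcript relative to every other member than the WT arrays.

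After 4 h of re-stimulation Tcf4 stood higher and Tcf3 lower than before it in both genotypes. In WT cells 1 of the 6 members was at least 2-fold higher and 0 were at least 2-fold lower, where 13.2% and 13.5% of 12388 genes were. In KO cells 1 was at least 2-fold higher and 3 were at least 2-fold lower, where 12.4% and 13% of 12394 genes were. The member that was higher in both genotypes was Tcf4, and those lower in KO cells were Tcf3, Id3 and Id1. With 6 members, these counts are no result about the members as a group. Of the 3 lower in KO cells, Tcf3 and Id3 stood at the 2-fold line, at -1.006 and -1.001. Under some alternatives of processing that count was 1 or 0. The median difference of the members was -0.19 in WT and -0.77 in KO cells, next to -0.005 and 0.009 for all genes. These medians include Tcf12, whose probes disagreed in direction.

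Tcf4 was 2.07-fold higher after re-stimulation in WT cells, a difference of 1.05 with an error of 0.21, and 2.19-fold higher in KO cells, a difference of 1.13. Both re-stimulated arrays were above both unstimulated ones, and the genotypes lay within the error of each other at either time. Of the genes measured, 12.2% were as far up in WT cells and 10.1% in KO cells.

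The Tcf3 difference was -0.94 in WT cells and -1.01 in KO cells, with an error of 0.20, and that of its other probe was -0.83 and -1.10. The re-stimulated arrays were the lower 2 with both probes. The folds of the brighter probe, 1.92 and 2.01, stood on either side of the 2-fold line and differ by less than the error. As far down were 14.9% of genes in WT and 12.9% in KO cells.

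Tcf12 had differences of -0.32 in WT and -0.54 in KO cells with its brighter probe. The other probe gave 0.45 in WT and 0.25 in KO cells. The SD between the 2 probes was 0.55 in WT and 0.56 in KO cells, above the 90th percentile of 0.531 over genes in KO cells and close to that of 0.591 in WT cells. The 2 probes thus disagreed in direction, and no direction is given for Tcf12.

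Plasmacytoid dendritic cells are a known source of Tcf4. Of their 6 markers 3 were well above background on every array and a further one, Ccr9, only on the unstimulated KO array. The summed signals were 30047 and 46887 for WT and KO before and 44724 and 62424 after re-stimulation, nearly all of it from Bst2 and Irf8, which activated T cells also express. The defining Siglech was not above background on any array, nor was Spib. The part of such cells in the Tcf4 signal was not tested.

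**Figure D3:**
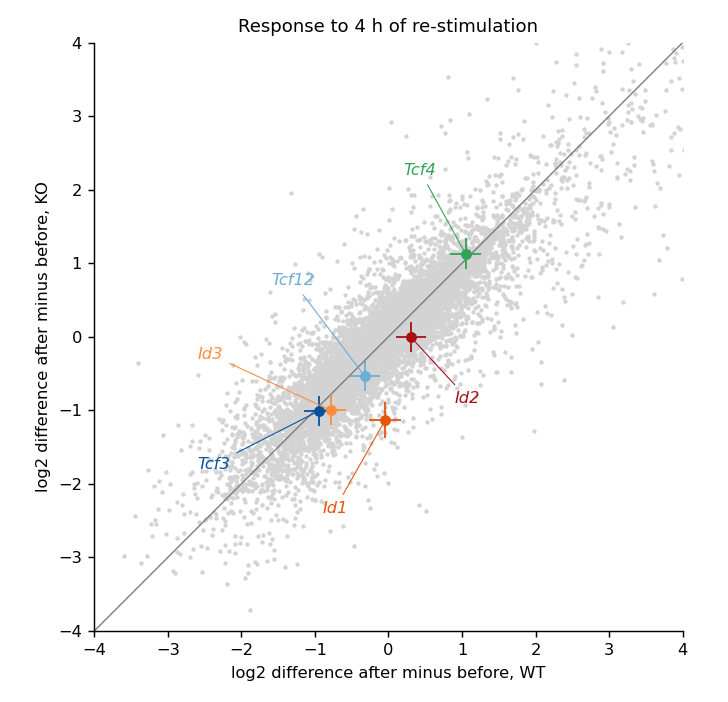
Each grey point is a gene well above background on all 4 arrays, placed by its log2 difference after minus before re-stimulation in WT cells (horizontal axis) and in KO cells (vertical axis), with the 6 members in colour, bars for the modelled error, and the line of equal responses (100 of 10810 genes lie beyond the axes). Tcf4 lies high and Tcf3 low on the line, and Id1 lies below it, at -0.05 in WT and -1.14 in KO cells.

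With re-stimulation the Id3 difference stood at -0.79 in WT and at -1.001 in KO cells. Each re-stimulated array was below both unstimulated ones. The 4 levels were in the order unstimulated WT, unstimulated KO, re-stimulated WT and re-stimulated KO, each step larger than its error of 0.20. Of the genes measured, 19.1% were as far down in WT and 12.9% in KO cells.

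Id1 was about level in WT cells, at -0.05 with an error of 0.22, and stood at -1.14 in KO cells, with an error of 0.25. Its other probe gave -0.15 and -1.16. Id2 stood at 0.30 in WT cells and was level in KO cells, at -0.0045, with an error of 0.20, and its other probe gave 0.02 and -0.03.

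How the arrays were scaled bears on these re-stimulation values more than on those between genotypes. Scaling to the median moved the median of all genes by -0.30 in WT and -0.27 in KO cells, and scaling to Cd3e, a chain of the TCR complex, moved it by 0.30 and 0.26. Over the 9 alternatives Tcf4 ran from 0.75 to 1.34 in WT and from 0.87 to 1.39 in KO cells, and it was at least 2-fold in 7 of 9 for either. Tcf3 ran from -1.24 to -0.65 and from -1.27 to -0.75, and was at least 2-fold lower in 1 and in 5 of the 9. Id3 ran from -1.08 to -0.49 and from -1.27 to -0.75, likewise in 1 and in 5 of the 9. These counts include the alternatives that by design left the members as reported. The signs of these 3 genes held under each alternative.

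Free of scaling, the ratio of Tcf4 to Tcf3 was 3.97-fold higher after re-stimulation in WT and 4.40-fold higher in KO cells. The ratio of Tcf4 to Id3 was 3.57-fold and 4.38-fold higher. Id3 and Tcf3, in contrast, kept their ratio within 1.11-fold in WT and 1.00-fold in KO cells. Relative to each other the inhibitor and this E protein were thus nearly level, while Tcf4 was higher relative to both.

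**Figure D4:**
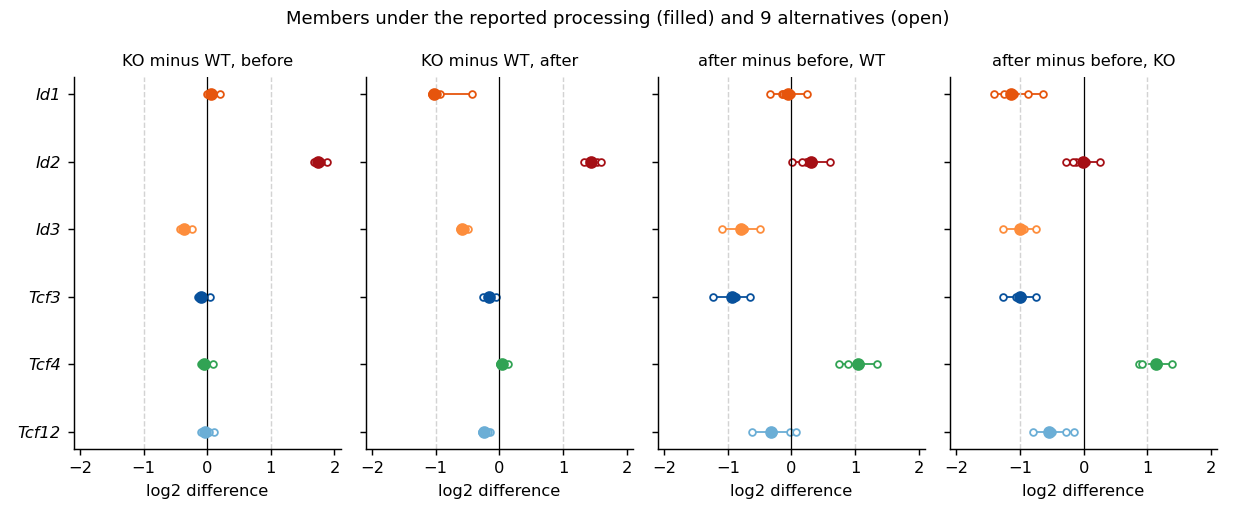
Each row is a member and each panel a comparison, with the log2 difference as reported (filled) and under the 9 alternatives of processing (open), a line from the lowest to the highest alternative, and broken lines at 2-fold. The Id2 values between genotypes stay past 2-fold under each alternative, while those of Tcf3, Tcf4 and Id3 on re-stimulation spread across that line.

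The 2 by 2 layout also allows the responses of the genotypes to be set against each other, as the KO response minus the WT response. The value was -1.09 for Id1 with a modelled error of 0.33, and -1.003 with an error of 0.38 for its other probe. It was the 1 member past 2-fold, on the lower side, where 3% of 10810 genes were, and 0 members were past it on the higher side, where 1.82% were. For the other 5 members the value was between -0.31 and 0.08. Only that of Id2, -0.31 with an error of 0.29, exceeded its error, and the other Id2 probe gave -0.05. Under the alternatives the Id1 value ran from -1.13 to -0.51 and was past 2-fold in 8 of the 9, among them those that could not move it. As low were 2.51% of the genes.

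The genes most like each member over the 4 arrays were sought among 10809 others well above background on all arrays, by the root mean square distance between log2 values centred on each gene. The measure covered 4 arrays only, and many genes were close. Nearest to Id2 were Lpxn, Selenom and Basp1, at distances of 0.128, 0.133 and 0.139, and 20 genes were within 0.2. Nearest to Id1 were Ssbp3, Tcstv3 and Pfkl, at 0.048, 0.049 and 0.077, with 85 genes within 0.2.

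For the members that differed mainly with re-stimulation the pattern was a common one. For Id3, Arhgap11a, Oas1e and Macroh2a1 came nearest and 639 genes were within 0.2. For Tcf3 the nearest were Taok2, Tshz1 and Lmo4, with 1108 genes within 0.2, and for Tcf4 they were Ctps, Ftsj3 and Ccnyl1, with 662 genes. Tcf12 did not span 1 on the log2 scale over the arrays and was left out.

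The genes around this pathway were read from 5 lists of 133 genes, of which 130 were on the array. Before re-stimulation 21 of the 100 measured were at least 2-fold higher on the KO array and 7 at least 2-fold lower, with a median of 0.05. After it the counts were 17 and 10 of 104, with a median of 0.02. On re-stimulation 25 of 100 were higher and 12 lower in WT cells, and 25 and 14 of 101 in KO cells. Of all genes, 5.26% and 2.82% were higher and lower on the KO array before re-stimulation and 5.17% and 3.85% after it. On re-stimulation 13.2% and 13.5% of all genes were higher and lower in WT cells and 12.4% and 13% in KO cells. For Zeb2, Foxp3, Heyl and Twist1 before re-stimulation and for Ebf1, Msc, Tal2, Smad9 and Il6ra after it, one of the 2 arrays was not above background, and the gene counts at its bound. On re-stimulation the same holds, among others, for Tal2, Zeb2 and Smad9 in WT cells and for Ebf1 in KO cells. The sign of the list median turned under at least 1 alternative for the other helix-loop-helix factors and the BMP and TGF-β genes before re-stimulation and for the E protein targets after it. The lists overlap, as Il7r, Tcf7, Lef1, Bcl6 and Foxo1 stand among both targets and memory genes, Hes1 among both targets and the other helix-loop-helix factors, Zeb2 among both targets and effector genes, and Id3 itself among memory genes.

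**Figure D5:**
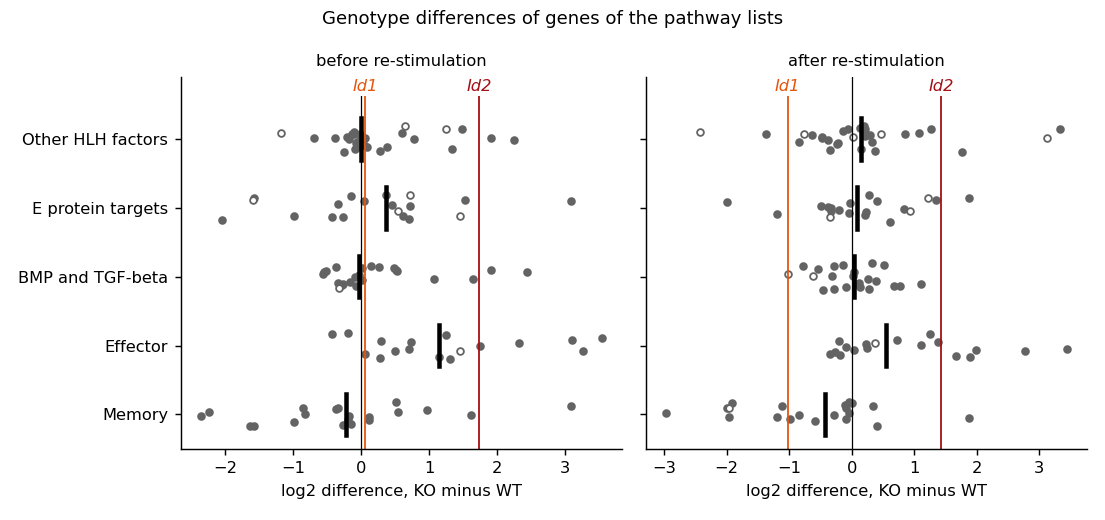
Each point is a gene of 1 of the 5 lists, placed by its log2 difference, KO minus WT, before (left) and after (right) re-stimulation, with open points where the dimmer side is only a bound, black bars for list medians and vertical lines for Id1 and Id2. The effector genes lie furthest to the right, with medians of 1.15 and 0.55, and few genes of the other lists reach the Id2 line.

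Genes described as E protein targets in lymphocytes stood on both sides. The list is not of T cell genes alone, as Ebf1, Pax5 and Cd79a also stand among the B cell markers. Of 19 measured before re-stimulation 3 were at least 2-fold higher on the KO array (Il7r, Gata3 and Zeb2) and 3 at least 2-fold lower (Dntt, Tcf7 and Foxp3), with a median of 0.37. After it 3 of 20 were higher (Il7r, Socs3 and Ebf1) and 2 lower (Tcf7 and Lef1), with a median of 0.09. The shares of all genes were 5.26% higher and 2.82% lower before re-stimulation, and 5.17% and 3.85% after it. Il7r, the IL-7 receptor chain, had signals of 494 and 4164 on the WT and KO arrays before re-stimulation and 616 and 2560 after it, differences of 3.08 and 1.88. Dntt, which adds nucleotides to receptor gene joints in lymphocyte precursors, had 3027 and 732 before and 617 and 493 after it, differences of -2.04 and -0.50.

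Tcf7, an HMG box factor of naive and memory cells, had signals of 1560 and 523 before and 735 and 209 after re-stimulation, differences of -1.57 and -1.99. Zeb2 and Bcl6 had the largest re-stimulation differences of the list. Zeb2, a repressor that itself binds E-box-like sites, was not above background in unstimulated WT cells and had a signal of 1668 after re-stimulation, at least 7.27 higher on the log2 scale. In KO cells it went from 41.3 to 2197, a difference of 6.03. The other Zeb2 probes were not well above background on either unstimulated array, so its count as higher on the KO array rests on a single probe. Bcl6, the repressor that directs follicular helper cells, went from 216 to 3232 in WT and from 180 to 3537 in KO cells, differences of 4.38 and 4.60. Of the list, 5 of 18 were at least 2-fold higher on re-stimulation in WT cells, Bcl6 and Zeb2 among them, and 2 lower (Lef1 and Dntt). In KO cells 6 of 20 were higher and 3 lower (Lef1, Tcf7 and Socs1). The shares of all genes were 13.2% higher and 13.5% lower in WT cells, and 12.4% and 13% in KO cells.

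Of 41 other helix-loop-helix factors, 28 were measured before re-stimulation, and 5 were at least 2-fold higher on the KO array (Lyl1, Heyl, Hif1a, Epas1 and Ahr) and 1 lower (Twist1). After it 5 of 30 were higher (Msc, Mycn, Tfeb, Epas1 and Ahr) and 2 lower (Tal2 and Mxd3). The medians were -0.01 and 0.15. Among all genes 5.26% were higher and 2.82% lower before re-stimulation, and 5.17% and 3.85% after it. Epas1, the alpha subunit of an oxygen-regulated factor, had signals of 748 and 3521 before and 479 and 5423 after re-stimulation, differences of 2.24 and 3.33. Msc, a repressor of the family, was above background on both KO arrays, with 23.6 and 142, and on neither WT array, at least 0.65 and 3.12 higher on the log2 scale.

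Ahr, the aryl hydrocarbon receptor, had signals of 27.2 and 102 on the WT and KO arrays before and 244 and 665 after re-stimulation. Its differences on re-stimulation, 3.65 in WT and 3.01 in KO cells, were the largest of the list that were measured on both sides. In all, 5 of 28 were at least 2-fold higher on re-stimulation in either genotype, namely Ahr, Bhlhe40, Mxd1 and Myc in both, Tal2 in WT and Msc in KO cells. Those lower were 6 in WT and 5 in KO cells (Lyl1, Mxd3, Mxd4, Mxi1 and Usf2). Among all genes 13.2% were higher and 13.5% lower in WT cells, and 12.4% and 13% in KO cells. Tal2 was above background only on the re-stimulated WT array, with a signal of 81.7, so that on the log2 scale it was at least 2.91 higher than before re-stimulation, a fold of at least 7.54, and at least 5.35-fold higher than on the re-stimulated KO array.

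Genes of BMP and TGF-β signalling, which lies upstream of Id1 and Id3, had list medians near 0 between genotypes. Of 23 measured before re-stimulation 4 were at least 2-fold higher on the KO array (Bmp7, Acvr2a, Tgfb3 and Skil), where 5.26% of all genes were, and 0 lower, with a median of -0.03. After it 1 of 23 was higher (Bmp7) and 1 lower (Smad9), with a median of 0.03. Among all genes 2.82% were lower before re-stimulation, and 5.17% were higher and 3.85% lower after it. Bmp7, a BMP ligand, had signals of 1810 and 6750 before and 759 and 1847 after re-stimulation, differences of 1.91 and 1.11. Acvr2a, an activin and BMP receptor, was at 18.9 and 102 before and at 26.9 and 32.2 after re-stimulation, differences of 2.44 and 0.08.

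The TGF-β ligand gene Tgfb3 had signals of 229 and 715 before and 147 and 156 after re-stimulation, differences of 1.65 and -0.09. The KO values of Acvr2a and Tgfb3 were thus lower after re-stimulation than before it, with differences of -1.37 and -1.895. The other Skil probe had a genotype difference of 0.83 before re-stimulation, short of 2-fold. Tgif1 and Skil, which restrain Smad factors, were higher after re-stimulation in both genotypes. Their differences were 2.68 and 2.26 in WT cells and 2.77 and 1.21 in KO cells. The other Skil probe gave 2.87 in WT and 2.58 in KO cells, so the lower KO value of Skil was not seen with it. As a list, 3 of 24 were at least 2-fold higher (Smad9, Skil and Tgif1) and 1 lower (Bmpr1a) in WT cells. In KO cells 2 of 22 were higher (Skil and Tgif1) and 4 lower (Bmp7, Bmpr1a, Acvr2a and Tgfb3). The medians in WT and KO cells were -0.16, which turned to 0.14 with scaling to Cd3e, and -0.33. Among all genes 13.2% were higher and 13.5% lower on re-stimulation in WT cells, and 12.4% and 13% in KO cells.

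Of the 5 lists, that of effector genes, with which Id2 is known to go, had the highest median on the KO arrays relative to WT. The lists were chosen with earlier results of these data known, so this order is not an independent check. Of 17 measured before re-stimulation 9 were at least 2-fold higher and 0 lower, with a median of 1.15. After it 8 of 18 were higher and 0 lower, with a median of 0.55. Of all genes, 5.26% and 2.82% were higher and lower before and 5.17% and 3.85% after re-stimulation. Under the alternatives the medians ran from 0.62 to 1.29 and from 0.41 to 0.73. On re-stimulation 9 of 17 were at least 2-fold higher in WT and 10 of 18 in KO cells, and 0 were lower. The shares of all genes in WT and KO cells were 13.2% and 12.4% higher, and 13.5% and 13% lower. Klrg1, an inhibitory receptor of terminal effector cells, had signals of 17.0 and 198 before and 19.0 and 234 after re-stimulation, differences of 3.54 and 3.45. Gzma, a granzyme, had 3301 and 31477 before and 6660 and 51284 after it, differences of 3.26 and 2.77.

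Havcr2, the receptor Tim-3, had signals of 152 and 1290 before and 5230 and 21961 after re-stimulation, differences of 3.096 and 1.896. Ifng, the Th1 cytokine, had the largest re-stimulation difference of the list, 9.30 in WT and 7.46 in KO cells. Its genotype difference was 1.75 before re-stimulation and -0.09 after it, where its other probe gave 0.32. Klrg1 is also a marker of group 2 innate lymphoid cells, whose sums are given above, and the part of other cell types and of sex in this list was not tested.

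The list of memory and naive genes, to which Id3 belongs, had medians below 0. Of 20 measured 2 were at least 2-fold higher (Il7r and Eomes) and 4 lower on the KO array before re-stimulation, with a median of -0.23. After it 1 was higher (Il7r) and 7 were lower, with a median of -0.43, where Id3 itself was at -0.58. S1pr1, the receptor that lets T cells leave lymph nodes, had signals of 3856 and 2166 before and 500 and 72.1 after re-stimulation, differences of -0.83 and -2.97. Il6ra, the IL-6 receptor chain, had 210 and 40.9 before re-stimulation, a difference of -2.35. After it the brighter Il6ra probe was at 68.8 on the WT array and not above background on the KO array, a bound of -1.96. Its other probe, well above background on all 4 arrays, gave a smaller difference of -1.22, so the probes disagree in size. On re-stimulation 5 of the 20 were at least 2-fold higher (Ccr7, Eomes, Bcl6, Cxcr3 and Slamf6) and 4 lower (Lef1, Bcl2, S1pr1 and Il6ra) in WT cells. In KO cells 4 were higher (Ccr7, Bcl6, Cd27 and Cxcr3) and 5 lower (Tcf7, Lef1, Bcl2, S1pr1 and Id3). Between genotypes the shares of all genes were 5.26% higher and 2.82% lower before re-stimulation, and 5.17% and 3.85% after it. On re-stimulation they were 13.2% higher and 13.5% lower in WT cells, and 12.4% and 13% in KO cells.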

How the data were processed

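The authors deposited, for each of the 4 arrays, spot intensities made with Feature Extraction (10.7.3.1 per the file headers, 10.7 in the submitters' processing notes), from which that software had subtracted the background and spatial trends. The authors also deposited log2 values of each probe. They equal the log2 intensities less the 75th percentile of their array within 0.01 for at least 41001 of 41173 probes, with medians of -4.09, -4.03, -3.79 and -3.77 for the unstimulated WT and KO and the re-stimulated WT and KO arrays, and no gene was centred.

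Spots flagged as uneven or as outliers, 107 to 120 of 43379 per array, were left out, and 0 spots were saturated. Log2 signals were averaged over the spots of a probe, and the 75th percentile of all probes of the array was taken off. By transcript accession, 27479 of 41173 probes (66.7%) matched 18749 genes of a RefSeq table of GRCm38.p6, used for names. A gene was read from its probe with the highest mean log2 signal where this stood well above background on 1 or both of the arrays compared, and the dimmer value was raised to the lowest signal well above background of its array, between 14.5 and 17.2. A difference against such a value is given as at least that large. Differences between responses used 10810 genes, those well above background everywhere.

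The arrays lay on 1 slide, and their number limits the precision. There was no test, and counts use a 2-fold rule of size. The spread between spots of one probe had a median SD of 0.053 to 0.063 on the log2 scale.

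The members and the lists (other helix-loop-helix factors, E protein targets, BMP and TGF-β, effector, memory, and the marker lists of T, CD8 T, B, plasmacytoid dendritic, myeloid, NK, group 2 innate lymphoid, mast and basophil cells and of sex) were chosen with earlier results of these data known. All members were named, and of each pathway list the 3 genes with the largest genotype difference and the 2 with the largest re-stimulation difference, the genes behind a list count of 5 or fewer at the 2-fold rule, and the 3 genes nearest to each member that spanned at least 1 on the log2 scale. The genes behind 2 such counts, those of memory and naive genes lower before re-stimulation and of E protein targets higher on re-stimulation in WT cells, are not all reported by name here.

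The alternatives were scaling to the median, to the 75th percentile of the probes bright on all 4 arrays or to Cd3e, quantile normalization, normexp with an offset of 50 on the median spot and background signals with quantile normalization after it, the mean over probes, the deposited log2 values, a filter on both arrays, no filter and no floor, and 1.5-fold and 3-fold rules for counts. The deposited log2 values and the changes of filter and floor by design left member values as reported or nearly so. The scripts were tested on simulated data. The software was Python 3.11.15 (numpy 2.4.6, pandas 2.3.3) and, for normexp, limma 3.58.1 in R 4.3.3.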

Additional observations from a re-analysis of the deposited data

Results flagged for a closer look

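The Id1 difference between KO and WT was 0.065 before re-stimulation and -1.02 after it, on opposite sides of 0. The Tcf4 difference between KO and WT was -0.043 before and 0.040 after re-stimulation, both within the modelled error of 0.21. The Id2 difference on re-stimulation was 0.30 in WT and -0.0045 in KO cells. Each pair rests on 1 array per condition, and none of these differences between groups was tested.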

How the results depend on the processing

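Of 270 member values under the alternatives, 240 moved by less than the modelled error and 30 by more. The 240 include all values under the deposited log2 values and the changes of filter and floor, which could not move a member beyond its error. Of the 270, 8 took the opposite sign, of which 7 belong to values within their error of 0 as reported and 1 is that of Tcf12 in WT cells. The values between genotypes moved little, except that normexp with an offset gave -0.44 for Id1 after re-stimulation and -0.51 for its difference of responses. The re-stimulation values followed the scaling, and in what follows the WT value precedes the KO value. Scaling to the median gave -0.34 and -1.40 for Id1, 0.0053 and -0.27 for Id2, -1.08 and -1.27 for Id3, -1.24 and -1.27 for Tcf3, 0.75 and 0.87 for Tcf4, and -0.62 and -0.80 for Tcf12. Scaling to Cd3e gave 0.25 and -0.88 for Id1, 0.60 and 0.25 for Id2, -0.49 and -0.75 for Id3, -0.65 and -0.75 for Tcf3, 1.34 and 1.39 for Tcf4, and -0.027 and -0.28 for Tcf12. The mean over probes gave 0.064 and -0.14 for Tcf12, whose probes disagree. With normexp the KO values of Id1 and Tcf4 were -0.63 and 0.92. The median of the E protein targets in KO cells, 0.25 with the 75th percentile, was -0.012 with scaling to the median, and that of the BMP and TGF-β list in WT cells was 0.14 with scaling to Cd3e.

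Counts of members moved as follows. Members at least 2-fold higher on re-stimulation came to 0 in both genotypes with scaling to the median and with normexp. Members at least 2-fold lower on re-stimulation came to 2 in WT cells with scaling to the median, and in KO cells to 1 with quantile normalization, 1 when the 75th percentile was taken over probes bright on all 4 arrays, 0 with Cd3e and 0 with normexp. The 1 member lower on the KO array after re-stimulation fell to 0 with Cd3e, the mean over probes and normexp, and that of the difference of responses to 0 with normexp. A 1.5-fold rule gave 2 members lower in WT cells. A 3-fold rule gave 0 members for every count except Id2 before re-stimulation, which it kept.

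For the pathway lists a 1.5-fold rule gave 11 genes lower on the KO array before and 17 after re-stimulation, 26 lower on re-stimulation in WT cells, and 9 higher and 27 lower for the difference of responses, against 4 and 10 as reported. A 3-fold rule gave 12 higher before, 9 higher and 6 lower after, 4 lower in WT cells, 14 higher and 5 lower in KO cells, and 1 higher and 5 lower for the difference of responses. Genes lower in WT cells were 20 with the median, 6 with Cd3e and 7 with normexp, and those lower in KO cells 9 with Cd3e. The difference of responses had 2 higher and 6 lower with normexp, and 9 higher and 16 lower with no filter and no floor.

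Over all genes the 2-fold counts ran from 268 to 1212 higher and 109 to 686 lower before re-stimulation, 315 to 1437 and 234 to 1024 after it, 903 to 2951 and 993 to 2664 in WT cells, 884 to 2890 and 1043 to 2395 in KO cells, and 91 to 1285 and 178 to 1451 for the difference of responses. The share of higher genes among those past 2-fold on re-stimulation, 49.3% in WT and 48.9% in KO cells, was 29.1% and 30.8% with scaling to the median, 71.5% and 67.7% with Cd3e and 59.5% and 59.7% with no filter and no floor. No paired analysis was possible because each condition has 1 array. Signals near background, as those of Id1, limit what the arrays can show.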
